A study of Rattus norvegicus with 4 samples.

Results

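Haem breakdown and haem transport genes were described in NR8383 cells, a line of rat alveolar macrophages derived from normal lung lavage, after exposure to the iron oxide Fe2O3 (NRCWE018). The set holds 7 genes chosen by symbol: Hmox1, Hmox2, Blvra, Blvrb, Bach1, Slc48a1 and Flvcr1. A probe carries no gene name in the files, so its RefSeq accession was matched to the symbol, and 8 of 45598 probes matched 6 of the 7 genes. Blvra and Bach1 had 2 probes each, the other 4 genes had 1, and no probe matched Flvcr1. The 6 genes stand among 16581 named genes.

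All 4 samples were exposed cultures at 2 µg/mL for 4 h, in cells after 20 passages grown with 15% fetal bovine serum. The cells were cultured for 48 h before exposure. The study's design sets exposed against control cultures with 4 biological replicates of each. Control cultures were not analysed here, so the values cannot show what Fe2O3 changed. They give which haem genes were measured above background in exposed cells and how closely the 4 exposed cultures resembled each other.

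Haem oxygenase opens the haem ring in a reaction that yields biliverdin, carbon monoxide and free ferrous iron, and biliverdin reductase turns biliverdin into bilirubin. The repressor BACH1, paired with a small MAF protein, holds genes such as Hmox1 silent at antioxidant response elements until haem binds it, and NRF2 occupies the same elements as an activator. Macrophages that engulf red blood cells move haem out of the phagolysosome through HRG1, the product of Slc48a1, while FLVCR1 has been described as a haem exporter at the cell surface.

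The antioxidant response element is the sequence feature through which BACH1 and NRF2 act, so the bases before the transcription starts of the haem genes were searched for its core, TGACNNNGC, on both strands. The RefSeq promoter sequences (GRCr8) used here covered Blvra, Blvrb, Hmox2, Bach1 and Flvcr1, with 2 starts for Hmox2. They held no entry for Hmox1 or Slc48a1, so the search says nothing about these genes. The core was found in the 250 bases before the Blvra start and before 1 of the 2 Hmox2 starts, once each, and in neither the other Hmox2 window nor those of Blvrb, Bach1 and Flvcr1. It occurs in 10.1% of 33469 such windows of the genome. The windows of Blvra (chr3:134802660-134802909, plus strand) and Hmox2 (chr10:11337613-11337862, minus strand) are shown because they hold the core, here in capitals in its reverse orientation:
Blvra: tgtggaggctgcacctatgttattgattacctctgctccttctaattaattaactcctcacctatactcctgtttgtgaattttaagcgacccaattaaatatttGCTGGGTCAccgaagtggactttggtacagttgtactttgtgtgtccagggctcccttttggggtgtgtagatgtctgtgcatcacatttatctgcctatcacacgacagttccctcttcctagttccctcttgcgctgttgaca
Hmox2: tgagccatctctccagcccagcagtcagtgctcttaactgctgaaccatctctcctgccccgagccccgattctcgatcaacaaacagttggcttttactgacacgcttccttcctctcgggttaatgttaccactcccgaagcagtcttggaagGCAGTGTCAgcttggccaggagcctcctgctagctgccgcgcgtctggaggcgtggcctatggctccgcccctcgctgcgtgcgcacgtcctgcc

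The window of Blvrb (chr1:91866008-91866257, plus strand) is shown as the one with the most GC boxes among these genes. The GC box GGGCGG, searched on both strands, occurred 5 times there, some matches overlapping, against 2 times for Bach1, 1 time in the Hmox2 window above and 0 times for Blvra. It occurs in 30.5% of all windows, and capitals mark it:
Blvrb: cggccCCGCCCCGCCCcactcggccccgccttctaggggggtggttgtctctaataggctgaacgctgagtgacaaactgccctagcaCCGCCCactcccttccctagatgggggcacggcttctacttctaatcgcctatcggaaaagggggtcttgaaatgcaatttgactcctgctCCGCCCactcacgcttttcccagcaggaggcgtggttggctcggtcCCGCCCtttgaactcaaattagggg
A match to these letters is a description of the window and not evidence that a factor binds it.

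Levels are log2 of the spot's processed signal relative to the 75th percentile of its array, so 0 is the signal at that percentile. The percentile lay between 756.5 and 1082 signal units, lowest on replicate 4, and between 37.8% and 41.2% of probes were well above background. Spots marked as outliers made up 1.13% to 1.62% of non-control spots, most on replicate 4, and no spot was saturated. The 4 arrays lay at 4 positions of 1 slide, so culture and slide position cannot be told apart. With 4 arrays, their number limits the precision. Macrophage identity was checked first: 8 of 10 macrophage markers passed background on each of the 4 arrays, with Cd68 and Spi1 in the set, and Marco and Adgre1 were above it on none. Of 21 measured markers of other cell types, 4 were above background on all arrays: Epor of the erythroid list, Cd3d, Pecam1 and Cdh5. In the erythroid list, whose cells make haem in bulk, Alas2 and Hbb were above background on no array and Klf1 was on 3.

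Most of the haem breakdown genes were well above background in every exposed culture, with the haem-sensing repressor Bach1 as the exception. Of the 6 genes with a probe, Hmox1, Hmox2, Blvra, Blvrb and Slc48a1 (5 genes, 6 probes) were above background on all 4 arrays, and Bach1 was not. Of all 16581 named genes, 50.5% were. RNA came from whole cultures, so the share of cells that express a gene and the amount of RNA per cell cannot be told apart.

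Hmox1, the inducible haem oxygenase, had processed signals of 20606, 19230, 18404 and 16905 in exposed replicates 1 to 4. Relative to the array's 75th percentile its level was 4.27, 4.29, 4.09 and 4.48 on the log2 scale (mean 4.28 ± 0.16, SD, n = 4). Replicate 4 was highest and replicate 3 lowest, a range of 0.39, or 1.31-fold. Hmox2, the constitutive haem oxygenase, had processed signals of 2186, 2131, 2092 and 1660. Its level was 1.03, 1.11, 0.95 and 1.13 (mean 1.06 ± 0.08, SD, n = 4), with this scaling also highest in replicate 4 and lowest in replicate 3. The 4 Hmox2 values lay within 0.18 of each other, or 1.13-fold. A probe's signal depends on its own sequence, so these values do not say which haem oxygenase had more transcript.

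The 2 genes of biliverdin reduction varied little between cultures. Blvra, which encodes the principal biliverdin reductase of adult tissues, was at 3.37, 3.49, 3.30 and 3.40 by its brighter probe A_43_P12959 (mean 3.39 ± 0.08, SD, n = 4). Its second probe, A_44_P233618, was at 0.19, 0.33, 0.17 and 0.02 (mean 0.18 ± 0.13, SD, n = 4). Both probes were highest in replicate 2 but differed in replicate 4, where the first lay 0.01 above and the second 0.16 below its own mean. Blvrb, whose enzyme reduces flavins and the beta isomer of biliverdin, was at 3.08, 3.21, 3.10 and 3.24 (mean 3.16 ± 0.08, SD, n = 4). Its 4 values lay within 0.16, or 1.12-fold, the narrowest range of the 8 probes with this scaling. Without scaling the range of Hmox1 was narrower, 0.29 against 0.38 for Blvrb.

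Slc48a1, the phagolysosomal haem transporter, was at 1.28, 1.18, 0.86 and 1.20 (mean 1.13 ± 0.18, SD, n = 4). Replicate 3 lay below the other cultures, which gave a range of 0.42, or 1.34-fold. Among the 6 probes above background on all arrays this was the widest range with this scaling. With normexp background correction the range of Hmox1 was wider, 0.51 against 0.44 for Slc48a1. Without scaling that of the dimmer Blvra probe was wider, 0.69 against 0.59.

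Bach1, the haem-binding repressor, lay at the edge of detection. Its probe A_43_P19327 had processed signals of 27.5, 46.7, 51.3 and 39.5 in replicates 1 to 4, and was well above background on replicates 2 to 4 but not on replicate 1. Its other probe, A_64_P056623, had signals of 18.1, 31.0, 22.2 and 26.1 and was well above background on replicate 2 alone. Both probes carried the laxer mark of a positive and significant signal on all 4 arrays, as 59.0% of all named genes did by at least 1 probe, which would make the count 6 of 6 genes. The software's own error estimate for these spots was 5.09 to 7.37 signal units. As levels, the first probe was at -5.29, -4.40, -4.40 and -4.26 and the second at -5.89, -4.99, -5.61 and -4.86. Where a spot was not well above background, its level is uncertain, so no order of the cultures was read from these values.

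**Figure D1:**
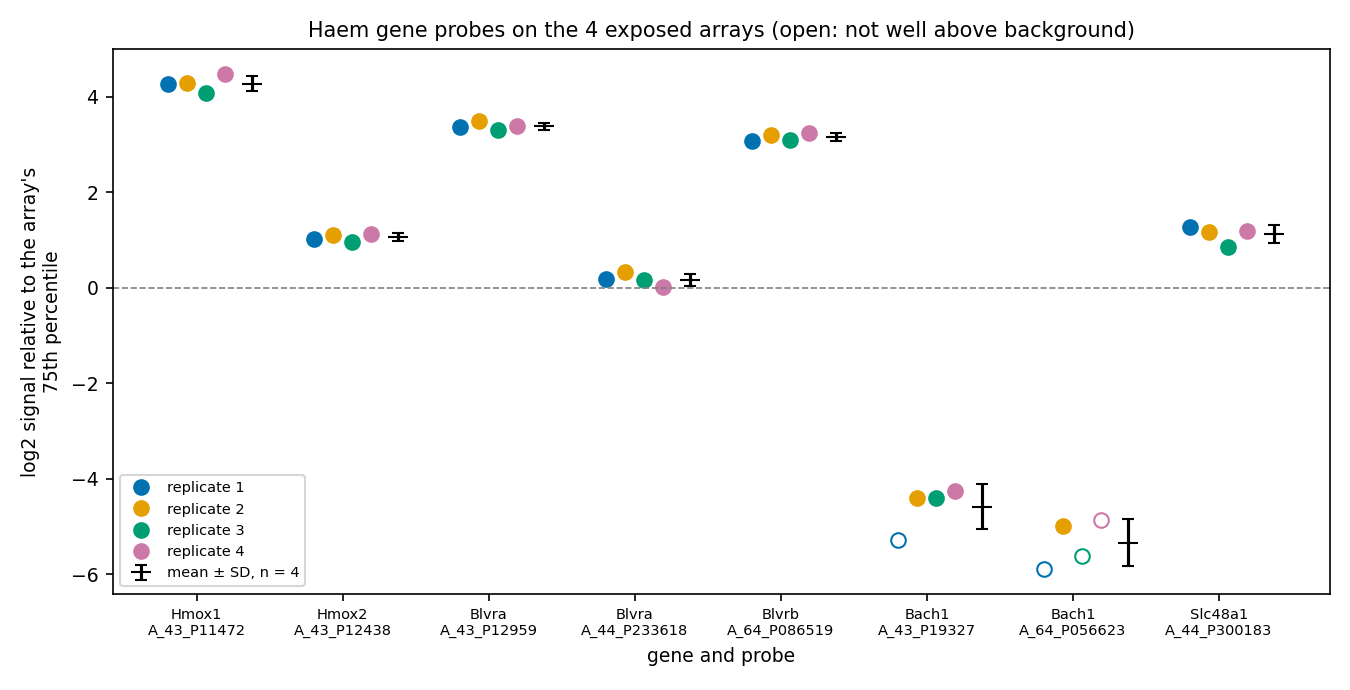
Levels of the 8 haem gene probes (log2, with 0 at each array's 75th percentile, vertical axis) on the 4 exposed arrays, 1 colour per replicate, with mean ± SD (n = 4) in black. Open circles are spots not well above background, whose levels are uncertain and which occur for Bach1 alone: 1 of 4 arrays with A_43_P19327 and 3 of 4 with A_64_P056623.

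Differences between the exposed cultures were small for every haem gene that could be tested. The variance of each probe between the 4 arrays was set against that of probes of like level with limma, over all 16659 probes above background on all arrays. Of these, 28 passed a Benjamini-Hochberg adjusted p of 0.05 (0.168%), and none of the 6 haem probes did. Their limma adjusted p was 0.998 each, and 0 of the 6 had an unadjusted p under 0.05, against 984 of all tested probes (5.91%). The lowest unadjusted p in the limma test was 0.393 for Slc48a1, followed by 0.409 for Hmox1. Bach1 was not tested, because neither probe was above background on all arrays. Such p-values do not show that the cultures were alike.

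The SD between cultures ran from 0.08 for the brighter Blvra probe to 0.18 for Slc48a1, with a median of 0.11 over the 6 haem probes, against 0.19 over all tested probes. Hmox1 and Slc48a1 lay at the SD that limma fitted for probes of their level (0.16 and 0.18), and the other 4 probes lay below it. Counted over all tested probes, 38.3% had a smaller SD than Hmox1, 47.6% a smaller one than Slc48a1 and 7.28% a smaller one than the brighter Blvra probe.

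**Figure D2:**
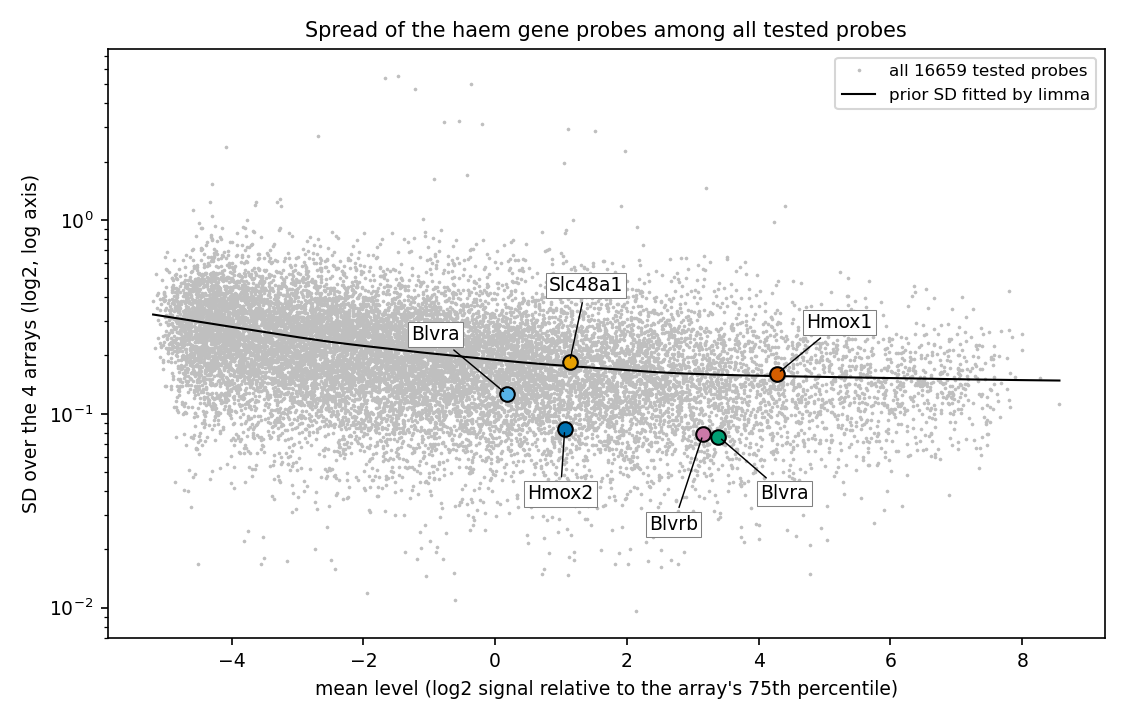
SD over the 4 exposed arrays (log2, logarithmic axis) against mean level for the 6 haem gene probes above background on all arrays (coloured, Blvra with 2 probes) and all 16659 tested probes (grey), with limma's fitted prior SD as the black line. Hmox1 and Slc48a1 sit on the line at 0.16 and 0.18, and the other 4 probes sit below it.

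Each bright spot also carries an error that the feature extraction software models within its array, here 9.98 to 10.0 times smaller than the signal, or 0.14 on the log2 scale. For Hmox1 the SD between cultures was 1.12 times that error, and for Slc48a1 1.28 times. It was 0.53 to 0.88 times the error for the other 4 probes, against a median of 1.22 over all tested probes. Of all tested probes, 64.7% had an SD above their error. The widest difference between any 2 cultures came to 2.06 times its combined error for Slc48a1 (replicate 1 over replicate 3). For Hmox1 it came to 1.93 times (replicate 4 over replicate 3). Each is the widest pair of its probe, and the same ratio was not computed over all tested probes. The spot error is a model value and not a repeat measurement, since every haem probe has 1 spot per array.

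Which culture stood highest in Hmox1 depended on whether the arrays were scaled. In unscaled processed signal replicate 4 was the lowest culture for Hmox1, 1.22-fold below replicate 1. After scaling to the 75th percentile, over all probes or detected probes alone, replicate 4 was the highest. It was also highest with quantile normalization, normexp background correction and outlier spots kept. For Hmox2 and Blvrb, quantile normalization, the detected-probe percentile and outlier spots kept each moved the highest culture from replicate 4 to replicate 2. Replicate 4 was also lowest unscaled for all 6 haem probes, as it was for 74.7% of all tested probes. Its unscaled deviation was -0.15 for Hmox1 and -0.51 for the dimmer Blvra probe, with a median of -0.27 over all tested probes. Scaling reduced the SD of 5 of the 6 probes, and that of Hmox1 was larger with scaling, 0.16, than without, 0.12. The median SD over all tested probes was 0.26 without scaling and 0.19 with it. The share of all tested probes whose SD fell was not counted.

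Replicate 3 was the lowest culture in Hmox1 and Slc48a1 with 75th percentile scaling (over all probes or over detected probes alone), quantile normalization, normexp background correction and outlier spots kept, but not without scaling. After scaling to the 75th percentile it was the lowest culture in 4 of the 6 haem probes (Hmox1, Hmox2, the brighter Blvra probe and Slc48a1) and in 32.3% of all tested probes. With quantile normalization it was lowest in 3 of 6, against 26.5%. Hmox1 was then at 4.30, 4.27, 4.19 and 4.39 in replicates 1 to 4, a range of 0.20, and Slc48a1 was at 1.29, 1.17, 0.89 and 1.15. Unscaled, Slc48a1 in replicate 3 lay 0.10 below its own mean while the median tested probe lay 0.14 above its mean, and replicate 4 was lowest in all 6 haem probes.

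**Figure D3:**
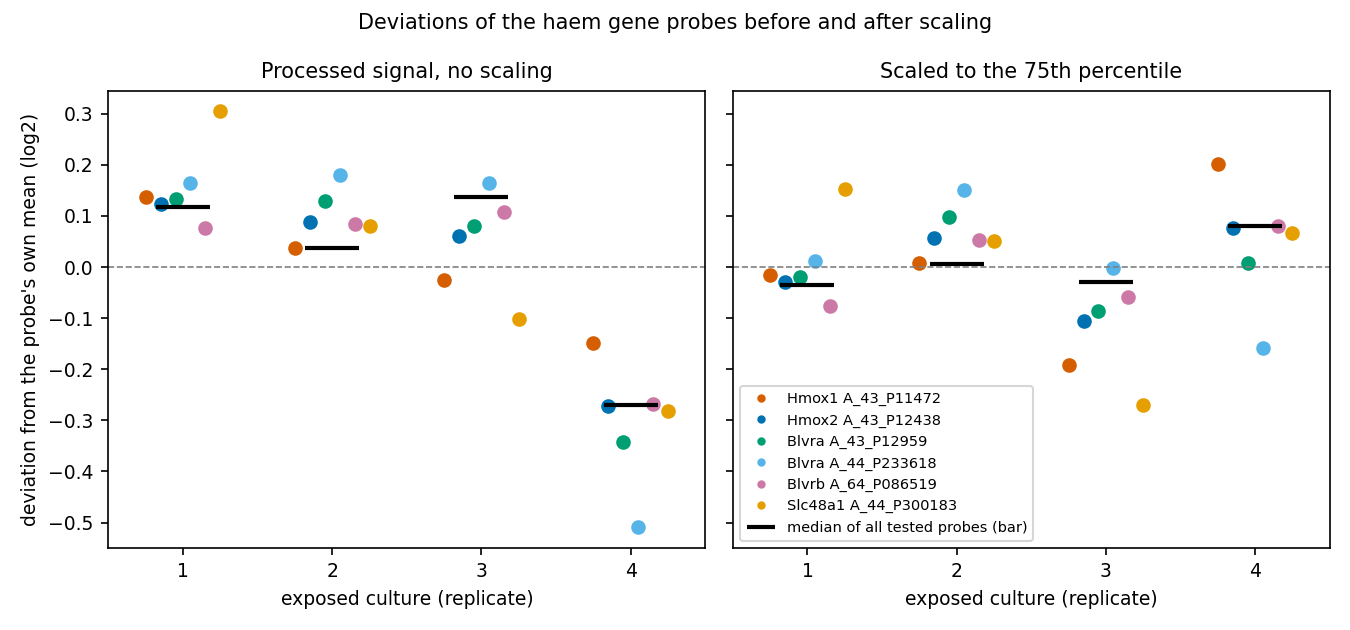
Deviation of each of the 6 haem gene probes from its own mean (log2) in the 4 exposed cultures, in unscaled processed signal (left) and scaled to the 75th percentile of each array (right). Black bars are the medians of all tested probes: all 6 haem probes are lowest in replicate 4 on the left, where the median bar lies at -0.27, and on the right Hmox1 spans -0.19 in replicate 3 to 0.20 in replicate 4.

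The genes whose 4 values ran most like those of Hmox1 were Psmf1, Pnpla7, Csnk2b, Tpx2 and Mlycd. Likeness was the root mean square difference between deviations from the own mean over the 4 arrays, which was 0.0045 for Psmf1 and 0.011 for Mlycd on the log2 scale. Such closeness was common: 1435 of 10348 named probes (13.9%) lay within 0.1 of Hmox1. Among the haem genes, Hmox2 lay at 0.08 and Blvrb at 0.098, with 7.88% and 13.2% of named probes closer to Hmox1. Slc48a1 lay at 0.116 (19.8% closer) and the brighter Blvra probe at 0.119 (21.2% closer). The dimmer Blvra probe was the least like Hmox1, at 0.216 with 64.2% of named probes closer. With 4 cultures no correlation was computed.

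Other genes of haem handling were listed by role, 36 in all, of which 33 had a probe. Of these 24 (72.7%) were above background on all 4 arrays, 9 on none and 0 on some, against 50.5% of all named genes. In the counts by role below, the same share of all named genes applies. Each list gene was tested for excess spread by 1 probe, and 0 of 24 passed limma's adjusted p, the lowest being 0.485. Of the 24, 1 had an unadjusted p under 0.05 in limma's test, against 5.91% of all tested probes. That gene was Flvcr2, a relative of Flvcr1, named here after its values were seen. It was at -3.45, -4.17, -3.59 and -2.58 in replicates 1 to 4 (mean -3.45 ± 0.66, SD, n = 4), highest in replicate 4 and 3.02-fold lower in replicate 2. Its SD was larger than that of 99.1% of all tested probes (unadjusted p = 0.011 in limma's test). That share counts probes of every level: limma's fitted SD at the level of Flvcr2 was 0.26, against a median SD of 0.19 over all tested probes.

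Haem sensing was represented by 7 of 8 genes above background. Nfe2l2, which encodes NRF2, was at 1.67, 1.45, 1.84 and 1.63 (mean 1.65 ± 0.16, SD, n = 4). Keap1, which marks NRF2 for degradation, was at -1.32, -1.29, -1.48 and -1.15 (mean -1.31 ± 0.14, SD, n = 4). The small MAF genes Mafk, Mafg and Maff, the haem-regulated kinase Eif2ak1 and the haem-binding receptor Nr1d2 were also above background on all arrays, and Nr1d1 on none. Nr1d2 passed near background, with signals of 27.4 to 42.2 and a mean level of -4.78. The Bach1 probe A_43_P19327, which missed the mark on replicate 1, had a mean level of -4.59. The mark therefore does not show that Nr1d2 had more signal than Bach1.

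Of 6 genes of haem uptake and scavenging, 2 were above background: Lrp1, the receptor for haem bound to haemopexin, at -1.15, -1.30, -1.84 and -1.46 (mean -1.44 ± 0.30, SD, n = 4), and Flvcr2. Cd163, the receptor for haemoglobin bound to haptoglobin, was not well above background on any array, nor were the plasma protein genes Hpx and Hp or the folate and haem carrier gene Slc46a1. Among 7 genes of other haem transport and binding, Abcb10, Abcc5, Pgrmc1, Pgrmc2 and Gapdh were above background. The porphyrin transporters Abcg2 and Abcb6 were above it on no array.

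All 4 genes of electron and NADPH supply were above background. Por, the cytochrome P450 reductase that feeds electrons to haem oxygenase, was at 0.98, 0.89, 0.54 and 0.91 (mean 0.83 ± 0.20, SD, n = 4), lowest in replicate 3. Nqo1, a quinone reductase and NRF2 target, was at -1.50, -1.63, -1.55 and -1.55 (mean -1.56 ± 0.05, SD, n = 4). Of 3 genes of bilirubin export, Abcc2 (-3.17 ± 0.15, SD, n = 4) and Abcc1 (-0.28 ± 0.19, SD, n = 4) were above background and Abcc3 was on no array. For the iron that haem oxygenase releases, the ferritin subunits Fth1 (7.56 ± 0.19, SD, n = 4) and Ftl1 (7.77 ± 0.13, SD, n = 4), the importer Slc11a2 and the iron chaperone Pcbp2 were above background, and the exporter Slc40a1 was on none.

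**Figure D4:**
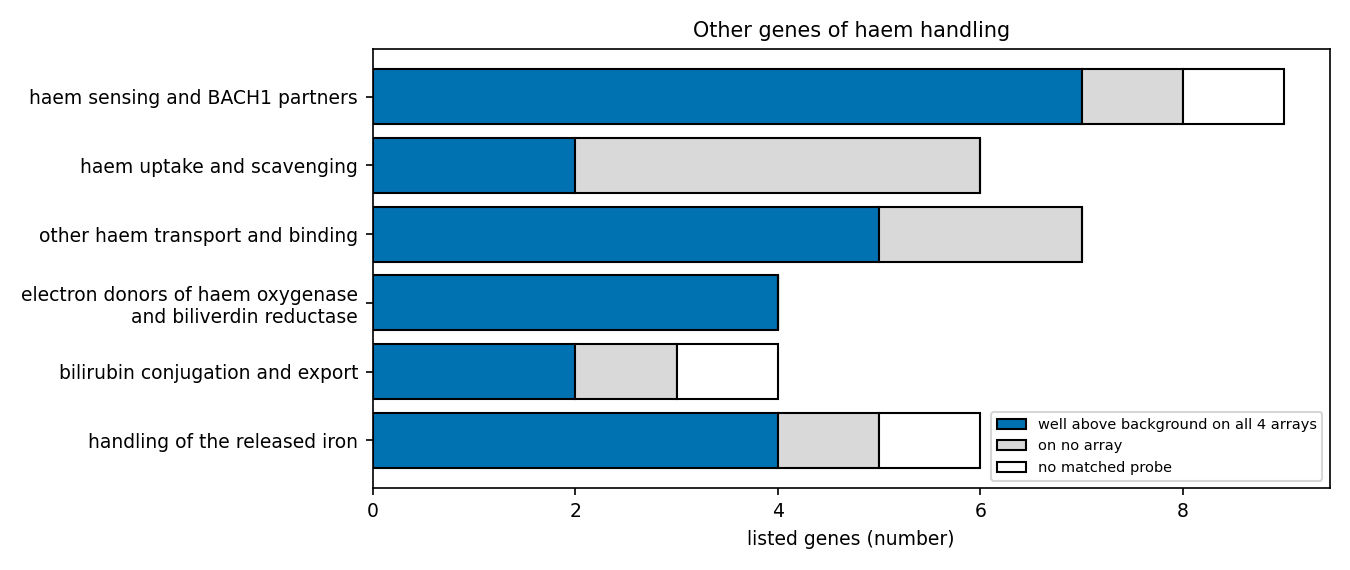
Number of listed genes in 6 groups of haem handling (bars) that were well above background on all 4 exposed arrays (blue), on no array (grey) or without a matched probe (white). Haem uptake and scavenging has 2 of 6 above background, and electron and NADPH supply 4 of 4.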

How the data were processed

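Total RNA of 4 exposed cultures received Cy3 dye and each sample went onto its own Agilent array, per the labels' protocols. Per the file headers, the authors' intensity values came from Agilent Feature Extraction 11.0.1.1: the processed signal is background-subtracted and detrended within the array, with no scaling between arrays. Its error estimate, the median spot and local background intensities and other values (flags of 0 or 1) were deposited in the same files. The sources used here do not give the authors' own normalization or tests.

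Of 62976 spots, 58717 were not controls. Outlier spots were left out unless all spots of a probe were marked, the array's 75th percentile was subtracted from log2 signals, and repeat spots were averaged. A probe carried a mark where most of its spots did. Accessions matched 21109 of 45598 probes to 1 gene of the GRCr8 RefSeq table, used for names only, since the grid is annotated on rn4; 24489 stayed unnamed. Excess spread used limma 3.58.1 in R 4.3.3 (upper-tail F test on each probe's variance, robust trended prior) and was tested on simulated data. For a list gene the probe detected on the most arrays was taken, then the brightest. Named were all genes of the set with every probe, the first 2 measured genes of each list, any gene with excess spread, and the 5 closest to Hmox1. The genes and lists were chosen with earlier results of these data known. Alternatives covered scaling, background correction, marks, priors, probe choice and each array left out.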

Additional observations from a re-analysis of the deposited data

Results flagged for a closer look

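The 4 values of 46 probes, those of the haem genes, the list genes and the 5 genes closest to Hmox1, were examined for a single array apart from the rest by Dixon's ratio of gap to range. It passed the critical value in 8, where chance gives about 1 set in 20, and the 5 closest genes were chosen to run like Hmox1. Of 35 probes above background on all arrays 3 passed. Slc11a2, an importer of ferrous iron, was at -0.31 in replicate 3 against 0.16, 0.18 and 0.21 (ratio 0.900). Maff was at -0.61 in replicate 2 against -1.17, -1.17 and -1.09 (ratio 0.860). Pgrmc2, a haem-binding membrane protein gene, was at 2.52 in replicate 4 against 2.66, 2.65 and 2.66 (ratio 0.915). Its SD of 0.07 was only 0.47 times its modelled spot error, so its high ratio shows no culture apart beyond that error. In limma's test of excess spread the unadjusted p was 0.220 for Slc11a2, 0.221 for Maff and 0.913 for Pgrmc2. The other 5 came from 11 probes not above background on all arrays, so that these ratios describe signal near background and call no culture apart. They were Bach1 by A_43_P19327 (0.864, replicate 1, the array on which it was not well above background), and Cd163 (0.952), Hp (0.885), Slc40a1 (0.860) and Hpx (0.859). Each of the last 4 had replicate 4 highest and no array well above background.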

How the results depend on the processing

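The count of haem genes above background on all arrays, 5, was 6 with the positive and significant mark, on at least 1 array, or without replicate 1, since Bach1 then counted. It was 5 in the other 4 alternatives. The share of all named genes was 50.5% in the main count and 59.0% with the positive and significant mark. That share was not computed for the other alternatives. All 83 adjusted p-values of the haem probes under other settings stayed above the threshold in limma's test, at 0.951 or higher. The count of probes with excess spread over the whole array was 28. It was 299 with normexp background correction, 872 with no filter on dim probes, 249 with no scaling between arrays (chosen after seeing the data), 12 with a constant prior variance and 16 with 1 probe per named gene. Leaving out 1 array gave 11 (without replicate 2) to 56 (without replicate 1), with 18 without replicate 3 and 53 without replicate 4. Other settings gave 19 to 39. Mean levels fell by 1.24 throughout where the percentile used only probes detected on every array, and by 0.18 with outlier spots kept, since the percentile itself moved. Normexp moved Bach1 the most, to -3.22 and -3.45 for its 2 probes. Averaging the 2 Blvra probes gave 1.78 in place of 3.39. No paired analysis was possible because the 4 samples form 1 group. Signal near background limits Bach1.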
